A study of Drosophila melanogaster with 30 samples.

Results

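The 10 genes described here encode the subunits of the nicotinic acetylcholine receptor of Drosophila melanogaster, 7 of the alpha kind (nAChRalpha1 to nAChRalpha7) and 3 of the beta kind (nAChRbeta1 to nAChRbeta3). They were chosen by gene symbol, and all 10 were found among the 14040 genes listed at embryonic stage 16 (St16) and the 14077 genes listed at the later stage at which the trachea fill with air (AFT). RNA from whole embryos was sequenced in 30 samples, in 5 genotypes at 2 stages with 3 biological replicates each. All embryos carried elav-Gal4 (Bl#458), a driver active mostly in postmitotic neurons. The control had this driver over an OregonR chromosome. The other genotypes carried UAS-col-HA (here col), UAS-myc-lbe (lbe), both UAS-col-HA and UAS-myc-lbe (col + lbe), or UAS-Flag-Ap/+ with UAS-eya-HPC4 (ap + eya). Col, listed under its other name kn, Lbe and Ap are transcription factors, and Eya is a transcriptional cofactor.

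Nicotinic receptors are pentameric cation channels of the Cys-loop family that open when acetylcholine binds. In insects acetylcholine is the main fast excitatory transmitter of the central nervous system, whereas the neuromuscular junction uses glutamate. Alpha subunits carry a pair of adjacent cysteines at the ligand-binding site that beta subunits lack, and different subunits combine into receptors with different pharmacology. They are the targets of neonicotinoid and spinosyn insecticides.

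The values are the authors' means over the replicates in TPM, a measure of relative transcript abundance that is scaled for transcript length, so that levels can be set side by side between genes. With 1 mean per genotype and stage there is no replicate error, no test and no p-value, and "higher" and "lower" below describe these means only. A log2 fold change is a difference of log2(TPM + 1), a scale that shrinks the fold of weakly expressed genes. Genes with at least 1 TPM in either group were compared, and those differing by 2-fold or more on this scale are called apart. The 4 comparisons of a stage share the control column, so they are not independent of each other. The RNA is that of the whole embryo, in which fewer cells of a type and less RNA per cell cannot be told apart.

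The misexpressed genes followed the genotype labels. The St16 level of kn was 25.9 TPM in control embryos, 92.4 with col and 81.0 with col + lbe. That of lbe was 0.0633 TPM in control embryos, 61.2 with lbe and 68.2 with col + lbe. With ap + eya, ap reached 92.8 TPM (control 10.5 TPM) and eya 88.8 TPM (control 11.2 TPM). In col + lbe, which carries no ap or eya transgene, ap was at 55.9 TPM and eya at 36.6. At AFT the largest log2 fold change against the control among these 4 genes was 1.73 with col, 5.57 with lbe and 2.93 with ap + eya. With lbe 1 of them was at -1.12. With col + lbe all 4 were at 2.83 or more, so at AFT kn stood higher there than with col. Reads of a transgene and of its endogenous gene could not be separated.

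The subunit genes differ in size and position. In the BDGP6.54 annotation nAChRbeta3 is the smallest, spanning 2.0 kb at 2L:545129-547096 on the plus strand with 4 exons. nAChRalpha2 (3R:24485428-24491147, plus strand, 5.7 kb), nAChRbeta2 (3R:24509228-24515106, minus strand, 5.9 kb) and nAChRbeta1 (3L:4429349-4435993, plus strand, 6.6 kb) are also compact. nAChRalpha7 (X:19327075-19348447, minus strand) spans 21.4 kb. The other 5 alpha genes each span more than 50 kb: nAChRalpha5 (2L:14040170-14094401, plus strand, 54.2 kb), nAChRalpha1 (3R:24393896-24457157, minus strand, 63.3 kb), nAChRalpha4 (3L:23206669-23287448, plus strand, 80.8 kb), nAChRalpha3 (X:8276200-8367169, minus strand, 91.0 kb) and nAChRalpha6 (2L:9793317-9886250, minus strand, 92.9 kb). Most of that length is intron, and the longest single intron of nAChRalpha6 measures 43.8 kb. nAChRalpha1, nAChRalpha2 and nAChRbeta2 are neighbours within 121.2 kb of 3R.

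Other genes overlap some of these spans, which matters for reads that could be shared. nAChRalpha5 shares its strand and part of its span with NimC4, which stood at 77.5 TPM at St16 and 0.502 TPM at AFT in the control. nAChRalpha3 overlaps CG1636 and nAChRbeta3 overlaps Ets21C, both on the opposite strand. Non-coding RNA genes, for which no level was found, overlap nAChRalpha1, nAChRalpha2 and nAChRalpha3 on the same strand. Others overlap nAChRalpha1, nAChRalpha4 and nAChRalpha6 on the opposite strand. The sources used here do not say whether the counting used strand, so values of all the subunits named here are less certain.

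At St16 1 subunit dominated. nAChRbeta1 stood at 36.4 TPM in control embryos, 36.9 with col, 38.6 with lbe, 39.9 with col + lbe and 38.2 with ap + eya. In the control it made up 50.6% of the summed level of the 10 genes, which was 71.9 TPM. nAChRalpha2, at 9.57 TPM in control embryos, and nAChRbeta3, at 9.44 TPM, came next, and their ranges over the 5 genotypes overlapped. nAChRbeta2 followed at 6.77 TPM, and its range overlapped that of nAChRbeta3 above it but not that of nAChRalpha1 below it. These are ranges of genotype means, since the spread between replicates is not known.

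The remaining alpha subunits were low at St16. In the control nAChRalpha1 was at 3.08 TPM, nAChRalpha4 at 2.71, nAChRalpha5 at 1.52 and nAChRalpha6 at 1.28. nAChRalpha7, which in flies acts in the giant-fibre escape circuit, ranged from 0.605 to 0.844 TPM over the 5 genotypes. nAChRalpha3 ranged from 0.225 to 0.569 TPM. These last 2 genes stayed under 1 TPM in every genotype, so 8 of the 10 subunits entered the comparisons at St16.

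At AFT all 10 genes were above 1 TPM in every genotype and the order was more even. In the control nAChRbeta1 was still the highest at 41.8 TPM, with 30.9% of a summed level of 135 TPM. nAChRalpha2 at 23.0 TPM and nAChRbeta2 at 20.4 TPM followed, with ranges over the genotypes that overlapped each other and, for nAChRbeta2, that of nAChRalpha6 at 13.8 TPM. nAChRbeta3 stood at 11.8 TPM and nAChRalpha5 at 7.22 TPM. nAChRalpha4, nAChRalpha1 and nAChRalpha7 lay close together at 5.77, 5.19 and 4.92 TPM with overlapping ranges, and nAChRalpha3 was lowest at 1.42 TPM.

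**Figure D1:**
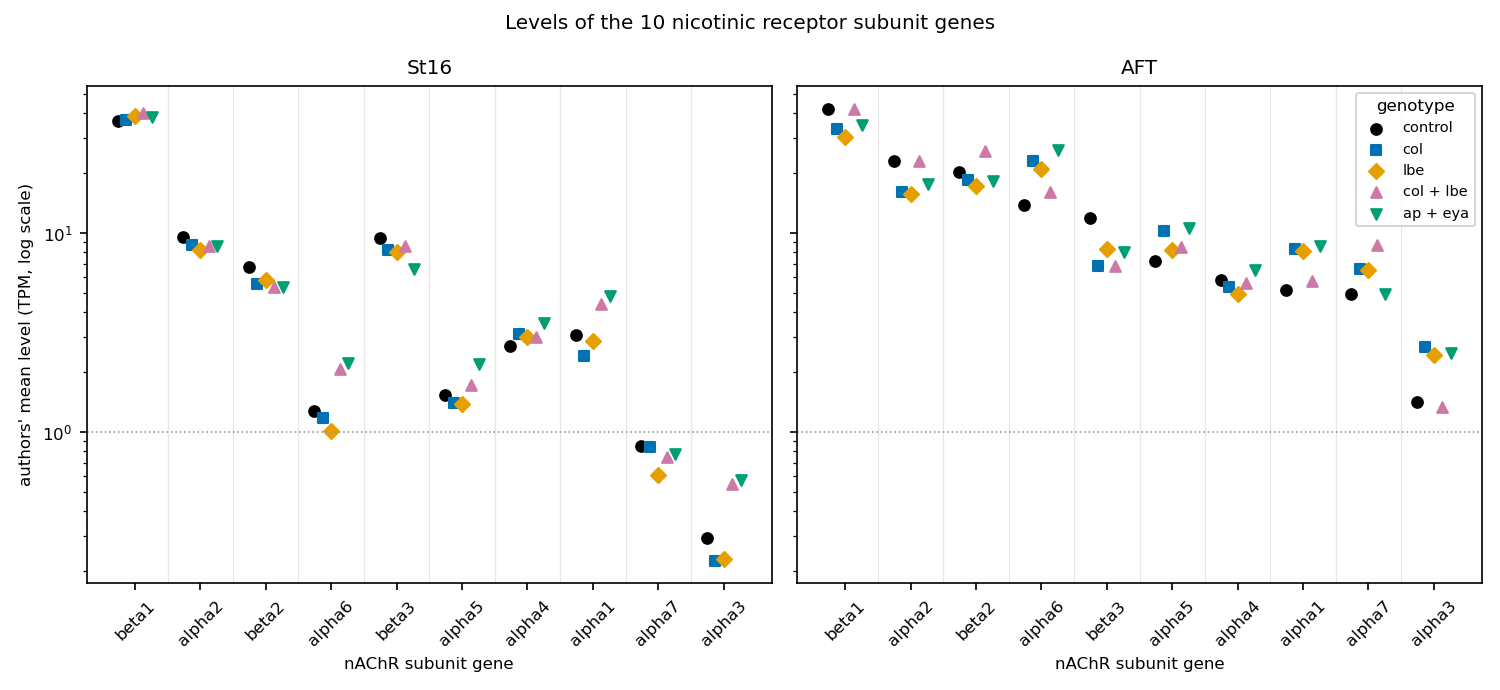
Level of each subunit gene in TPM on a log axis at St16 (left) and AFT (right), with 1 point per genotype, each the authors' mean over 3 replicates with no error available. The dotted line marks 1 TPM, the filter on low values. Genes are ordered by their AFT control level. nAChRbeta1 is highest at both stages, and nAChRalpha6 moves from 1.28 TPM at St16 to 13.8 TPM at AFT in the control.

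In control embryos each of the 10 subunits had a higher level at AFT than at St16, by different amounts. nAChRalpha6, the target of the insecticide spinosad, differed most, by 2.70 on the log2(TPM + 1) scale and 10.8-fold in plain TPM. nAChRalpha5 (1.70), nAChRalpha7 (1.68), nAChRbeta2 (1.46) and nAChRalpha2 (1.18) were also more than 2-fold higher on this log2 scale. nAChRalpha3 (0.90), nAChRalpha4 (0.87) and nAChRalpha1 (0.60) were below that threshold, and nAChRbeta3 (0.30) and nAChRbeta1 (0.20) differed least. Over all genes compared between the stages in the control, 19% were at least 2-fold higher at AFT and 24.8% at least 2-fold lower, with a median log2 difference of -0.37.

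In the misexpression genotypes 6 subunits were 2-fold or more higher at AFT with col, 6 with lbe, 5 with col + lbe and 5 with ap + eya, where 19.1%, 18.6%, 20.6% and 18.3% of all genes were. nAChRalpha6 stood 3.47 higher on the log2 scale with col, 3.45 with lbe, 2.47 with col + lbe and 3.08 with ap + eya. nAChRbeta1 was lower at AFT than at St16 with col (-0.15), lbe (-0.33) and ap + eya (-0.13) and 0.077 higher with col + lbe, but the first 3 values turned to 0.21, 0.075 and 0.33 when all columns were rescaled by the median ratio. The stages come from separate tables, and the St16 libraries were single reads of 50 bp and the AFT libraries paired reads of 150 bp, so stage and read layout cannot be told apart.

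No subunit was 2-fold apart from the control in any of the 8 comparisons, and none was in the authors' deposited table of genes apart for any genotype. At St16 the shares of all genes 2-fold apart from the control were 0.623% with col, 0.53% with lbe, 2.41% with col + lbe and 1.61% with ap + eya, and at AFT 4.29%, 3.47%, 7.35% and 4.45% in the same order. With 8 or 10 members compared, a count of 0 is near these backgrounds.

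At St16 no subunit reached 1.5-fold on the log2(TPM + 1) scale either, where 2.15%, 2.13%, 6.57% and 4.09% of all genes did. In plain TPM nAChRalpha6 did with col + lbe (1.61-fold) and nAChRalpha6 (1.73-fold) and nAChRalpha1 (1.57-fold) did with ap + eya. None did with col or lbe, and 3.8%, 3.88%, 9.4% and 6.45% of all genes did in the same order of genotypes. The sizes nonetheless were not alike across genotypes. nAChRalpha6 stood at 1.28 TPM in control embryos, 1.17 with col, 1.01 with lbe, 2.06 with col + lbe and 2.21 with ap + eya. nAChRalpha1, an alpha subunit whose loss lowers neonicotinoid sensitivity, stood at 3.08, 2.41, 2.87, 4.39 and 4.83 TPM in the same order. Both genes were highest in the 2 genotypes that misexpress a pair of factors, and their log2 fold changes there were 0.43 and 0.40 with col + lbe and 0.50 and 0.52 with ap + eya. This grouping was also noticed in the values, and the share of all genes with it was not counted. A list of 11 pan-neuronal genes, 10 or 11 of them compared, also had its highest St16 medians in these 2 genotypes. Its median log2 fold change was -0.096 with col, -0.059 with lbe, 0.063 with col + lbe and 0.25 with ap + eya.

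nAChRalpha5 was also highest in these 2 genotypes at St16, with 1.52 TPM in control embryos, 1.40 with col, 1.38 with lbe, 1.71 with col + lbe and 2.19 with ap + eya. So was nAChRalpha3, which was under the filter, at 0.292, 0.225, 0.230, 0.545 and 0.569 TPM. nAChRbeta2 went the other way, from 6.77 TPM in the control to 5.33 with col + lbe and 5.36 with ap + eya. Its levels with col (5.53) and lbe (5.77) lay between them.

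The other members at St16 differed less or in another order. nAChRbeta3 was highest in the control at 9.44 TPM and lowest with ap + eya at 6.59 TPM, and stood at 8.26 TPM with col, 8.00 with lbe and 8.55 with col + lbe. nAChRalpha4, at 2.71 TPM in control embryos, ranged from 2.98 to 3.51 TPM in the 4 misexpression genotypes. nAChRalpha2 ranged from 8.23 to 8.72 TPM in them against 9.57 TPM in the control. The median log2 fold change of the 8 subunits was -0.098 with col, -0.13 with lbe, 0.11 with col + lbe and 0.18 with ap + eya, beside medians over all genes of -0.080, -0.065, -0.047 and -0.016.

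At AFT several subunits lay further from the control. nAChRalpha6 stood at 13.8 TPM in control embryos, 23.0 with col, 21.0 with lbe, 16.0 with col + lbe and 26.1 with ap + eya. nAChRalpha1 stood at 5.19, 8.30, 8.07, 5.71 and 8.58 TPM in the same order, and nAChRalpha3 at 1.42, 2.68, 2.43, 1.33 and 2.48 TPM. For these 3 genes col, lbe and ap + eya lay above both the control and col + lbe, with no overlap between these means. This arrangement of the genotypes was noticed in the values and is a description. The share of all genes with it or with its opposite was not counted, so it cannot be called particular to the subunits.

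Against the control, the log2 fold change of nAChRalpha6 was 0.70 with col, 0.57 with lbe, 0.20 with col + lbe and 0.87 with ap + eya. That of nAChRalpha1 was 0.59, 0.55, 0.12 and 0.63, and that of nAChRalpha3 0.61, 0.50, -0.054 and 0.53. In plain TPM the ratio of nAChRalpha3 to the control was 1.89 with col, since the pseudocount weighs on a gene of this level. Set against the median of the other 4 genotypes instead of the control, nAChRalpha6 was 0.30 higher with col and 0.43 lower with col + lbe.

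nAChRalpha2 and nAChRbeta1 had the opposite arrangement at AFT. nAChRalpha2 stood at 23.0 TPM in control embryos, 16.1 with col, 15.8 with lbe, 23.1 with col + lbe and 17.7 with ap + eya. nAChRbeta1 stood at 41.8, 33.1, 30.5, 42.2 and 34.9 TPM. In both genes the control and col + lbe were nearly equal. nAChRbeta2 was also lower with col (18.4 TPM), lbe (17.2) and ap + eya (18.2) than in the control (20.4), and was highest with col + lbe at 25.9 TPM.

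nAChRalpha7 and nAChRbeta3 had patterns of their own at AFT. nAChRalpha7 stood at 4.92 TPM in control embryos, 6.59 with col, 6.49 with lbe, 8.75 with col + lbe and 4.95 with ap + eya, and so was highest where col and lbe were joined. nAChRbeta3, a divergent beta subunit, was highest in the control at 11.8 TPM, against 6.79 with col, 8.35 with lbe, 6.82 with col + lbe and 7.98 with ap + eya. Set against the median of the other 4 genotypes, nAChRbeta3 with lbe and with ap + eya was instead 0.15 and 0.065 higher on the log2 scale. nAChRalpha5 ranged from 7.22 TPM in the control to 10.6 with ap + eya, and nAChRalpha4 only from 4.95 TPM with lbe to 6.47 with ap + eya.

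At AFT and 1.5-fold, 3 subunits were higher with col (nAChRalpha1, nAChRalpha3 and nAChRalpha6) and 1 was lower (nAChRbeta3), where 4.45% of all genes were higher, 8.2% lower and 12.7% either. In lbe none was, against 12.5%, with nAChRalpha6 (0.57) and nAChRalpha1 (0.55) just under the log2 threshold of 0.58. In col + lbe nAChRalpha7 was higher and nAChRbeta3 lower, against 9.98% higher, 9.17% lower and 19.2% in all. In ap + eya nAChRalpha1 and nAChRalpha6 were higher, against 4.2% higher and 12.4% in all. In plain TPM, with no pseudocount, 3 subunits were 1.5-fold higher with lbe (nAChRalpha1, nAChRalpha3 and nAChRalpha6), against 17.1% of all genes in either direction, and the same 3 were with ap + eya, against 16.4%. The counts in plain TPM stayed at 3 higher and 1 lower with col, against 16.5%, and 1 higher and 1 lower with col + lbe, against 24.7%. The counts of 0 to 4 of 10 members are small and were not tested against these shares.

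The median over the 10 subunits at AFT was near zero in each comparison, with members on both sides of it. It was 0.13 with col, -0.011 with lbe, 0.064 with col + lbe and 0.075 with ap + eya, beside medians over all genes of -0.098, -0.13, 0.11 and -0.11. Median-ratio rescaling, which takes out most of that shift of all genes, gave subunit medians of 0.21, 0.10, -0.032 and 0.17. The summed level of the subunits ranged only from 123 TPM with lbe to 144 TPM with col + lbe. The alpha genes made up 45.3% of that sum in the control and 47.9% with col + lbe, against 54.4% to 55.7% in the other 3 genotypes.

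**Figure D2:**
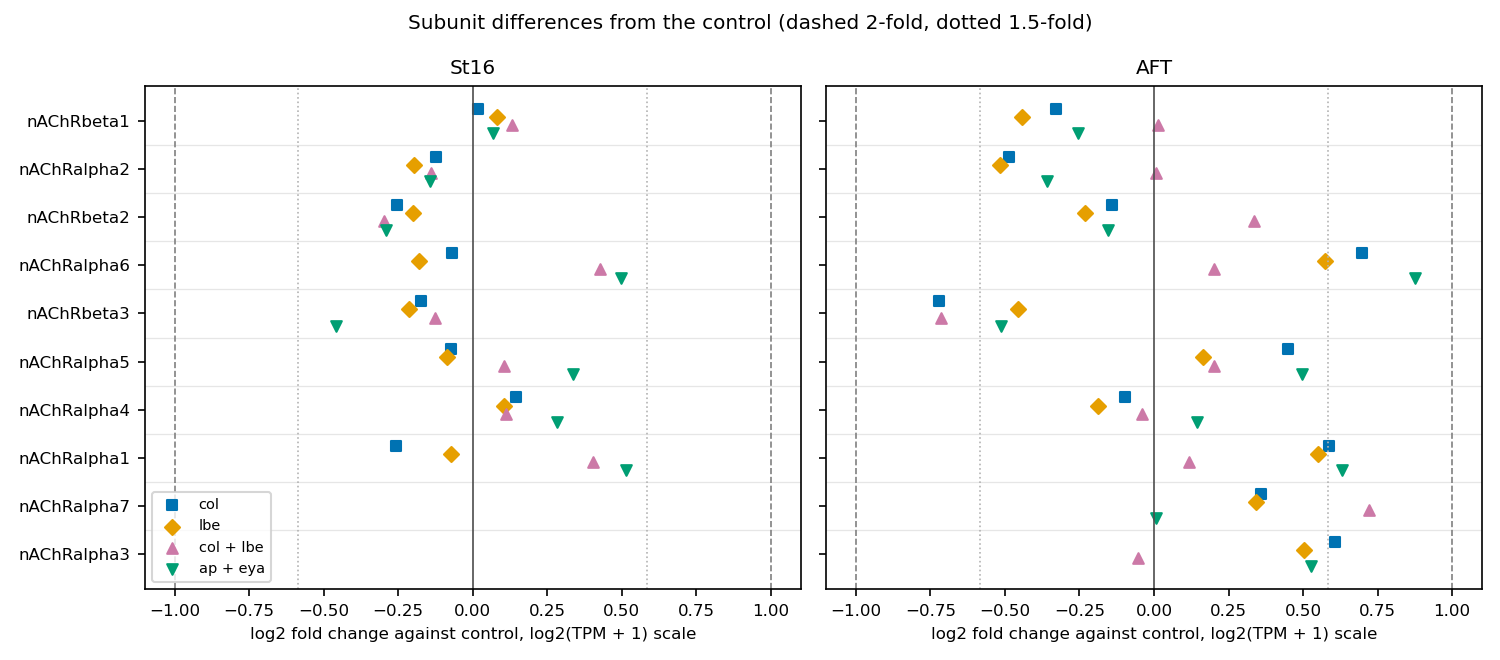
Log2 fold change of each subunit against the control on the log2(TPM + 1) scale at St16 (left) and AFT (right), with 1 point per misexpression genotype and no error available. Dashed lines mark 2-fold and dotted lines 1.5-fold. No point passes 2-fold. nAChRalpha7 and nAChRalpha3 have no points at St16, where they were under 1 TPM. At AFT nAChRalpha6 lies furthest to the right, at 0.87 with ap + eya, and nAChRbeta3 furthest to the left, at -0.72 with col.

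For some subunits the log2 fold change with col + lbe at AFT was far from the sum of those with col and lbe. To measure this, the log2 fold changes of the single genotypes were both subtracted from that of col + lbe. A negative value, called non-additive like a positive one, means a joint log2 fold change under the sum of the single log2 fold changes. It was -1.02 for nAChRalpha1, -1.16 for nAChRalpha3 and -1.07 for nAChRalpha6, and 1.01 for nAChRalpha2. These 4 of 10 subunits were past 2-fold, where 8.4% of all genes were, 6.21% above and 2.19% below. The median over all genes was 0.31, so these 3 negative values had the opposite sign to that median. The 4 misexpressed genes themselves had non-additive values from 0.79 to 2.40 at AFT, 3 of them past 2-fold. Their part in the result was not tested.

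nAChRbeta1 (0.78), nAChRbeta2 (0.70), nAChRbeta3 (0.46) and nAChRalpha4 (0.24) had positive values, nAChRalpha7 was at 0.020 and nAChRalpha5 at -0.41. A pseudocount of 5 leaves 0 of 10 past 2-fold, and median-ratio rescaling leaves 3, without nAChRalpha2 at 0.69. Leaving the mitochondrial transcripts out of the TPM scale also leaves 3. At St16 no subunit was past 2-fold, where 1.51% of all genes were. nAChRalpha1 (0.73) and nAChRalpha6 (0.68) were then positive, the opposite sign to AFT, and nAChRalpha6 reached 1.08 with a pseudocount of 0.1.

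Between the 2 genotypes with joint misexpression, no subunit was 2-fold apart at St16, where 0.952% of all genes were, or at AFT, where 3.39% were. At AFT nAChRalpha6 was lower with col + lbe than with ap + eya by a log2 difference of -0.67 and nAChRalpha7 was higher by 0.71, and these 2 were past 1.5-fold, where 14.9% of all genes were. nAChRalpha1 (-0.51), nAChRalpha3 (-0.58) and nAChRbeta2 (0.49) were the next furthest apart.

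The order of the fold changes at AFT followed the span of the genes, and the length of their transcripts as closely. Across the 10 members, Spearman's rho between gene span and log2 fold change was 0.92 with col, 0.87 with lbe, 0.067 with col + lbe and 0.93 with ap + eya, as a description over 10 genes that share their columns and, for 3 of them, their locus. The 5 genes of 50 kb or more had a median log2 fold change of 0.59 with col, 0.50 with lbe and 0.53 with ap + eya, and the 4 genes under 10 kb medians of -0.41, -0.45 and -0.31. nAChRalpha4 was the exception among the long genes, at -0.097 with col and -0.19 with lbe. With the length of the longest spliced transcript in place of the span, rho was 0.90 with col, 0.87 with lbe and 0.93 with ap + eya, and with the longest 3′ UTR 0.87, 0.84 and 0.90, so these features cannot be told apart over the 10 genes. They were examined after the values had been seen. Subunit kind and level cannot be separated from length either. The 5 genes of 50 kb or more are all alpha, and the 4 under 10 kb are nAChRalpha2 and the beta genes. Those 4 also had the highest levels of the 10 at St16 in the control.

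Over all genes this order was not seen at AFT. The other genes were not matched to the subunits in tissue or level, and the part of gene length in the result was not tested. The 258 other genes of 50 kb or more had medians of -0.11 with col, -0.24 with lbe and -0.12 with ap + eya, and over all annotated genes compared at AFT rho was -0.12 with col, -0.28 with lbe and -0.14 with ap + eya. At St16 rho over the 8 members compared was 0.43 with col, 0.67 with lbe, 0.79 with col + lbe and 0.86 with ap + eya, beside -0.17, -0.12, -0.15 and 0.24 over all genes. With spliced length it was -0.071, 0.50, 0.57 and 0.90, beside -0.19, -0.10, -0.098 and 0.29 over all genes. The other genes of 50 kb or more had St16 medians of -0.11 with col, -0.068 with lbe, -0.075 with col + lbe and 0.14 with ap + eya. Those under 10 kb had medians of -0.073, -0.061, -0.039 and -0.031.

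**Figure D3:**
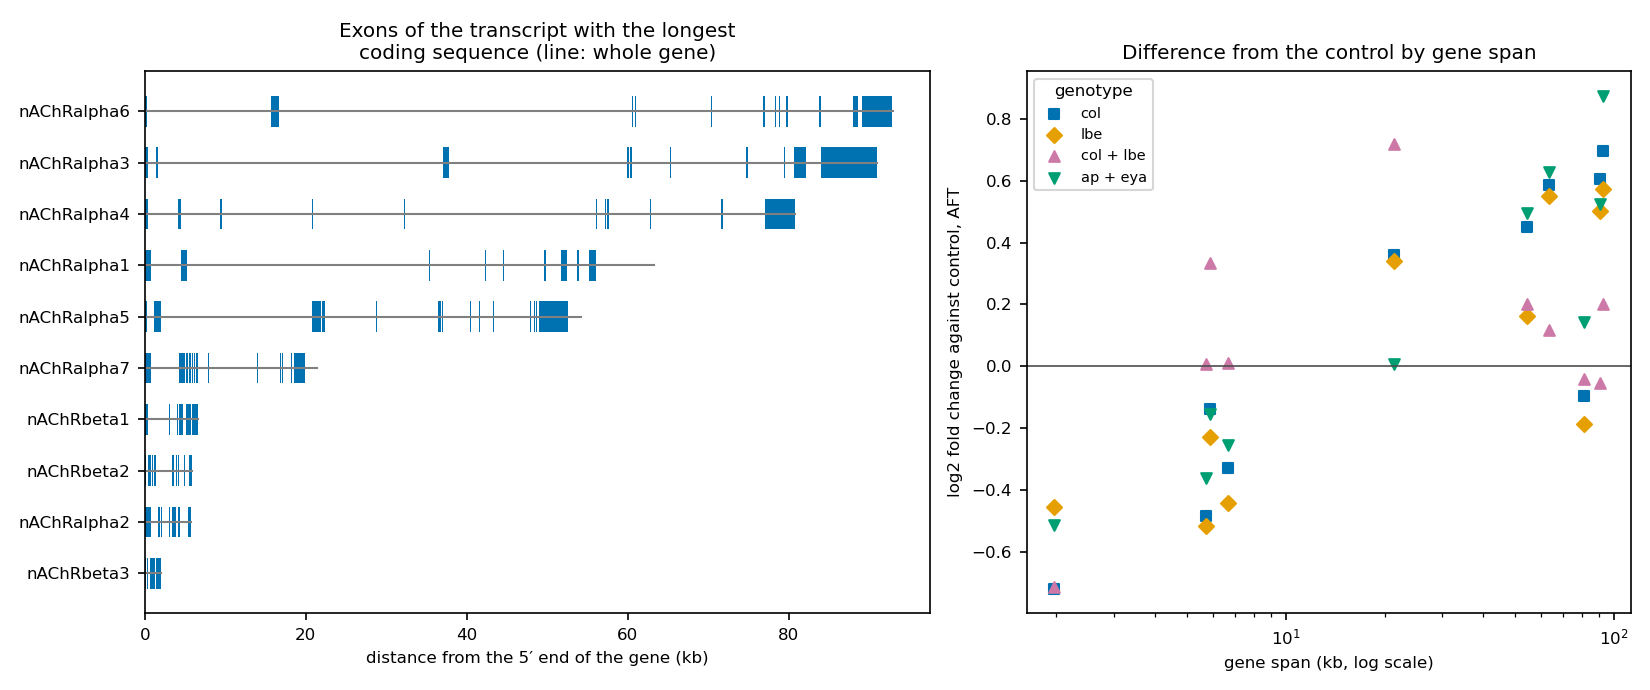
Left, exons of the transcript with the longest coding sequence of each subunit gene along the distance from the 5′ end of the gene in kb, with the narrowest exons widened to be visible and the line marking the whole gene. Right, log2 fold change against the control at AFT by gene span in kb on a log axis, with 1 point per gene and misexpression genotype. In col, lbe and ap + eya the 4 genes under 10 kb lie below 0, and nAChRalpha1, nAChRalpha3, nAChRalpha5 and nAChRalpha6 above it.

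The share of TPM in mitochondrial transcripts at AFT was higher with col, lbe and ap + eya than in the control and col + lbe, the split seen in nAChRalpha1, nAChRalpha3 and nAChRalpha6, though the order within the split differed. The 38 mitochondrial genes held 1.61% of TPM at AFT in the control and 1.54% with col + lbe, against 2.68% with col, 2.79% with lbe and 2.87% with ap + eya. At St16 they held 0.594% in the control, 0.675% with col, 0.602% with lbe, 0.764% with col + lbe and 0.797% with ap + eya. These genes were picked after their values were seen. Their part in the result was not tested.

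Over all genes, col, lbe and ap + eya also lay close together at AFT, but the control and col + lbe did not. Of the genes compared, 118 were 2-fold apart between col and lbe, 79 between col and ap + eya and 141 between lbe and ap + eya. Between col and the control 428 were, and between col and col + lbe 254. Between the control and col + lbe 744 were, the most of any pair at AFT. The labels give no batch or date.

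The enzymes and transporters of acetylcholine were not ordered like the long alpha subunits. ChAT, which synthesises acetylcholine, stood at 13.8 TPM in the control at AFT, 22.8 with col, 16.2 with lbe, 22.1 with col + lbe and 17.8 with ap + eya. ChT, the choline transporter, stood at 11.4, 12.4, 9.18, 20.4 and 10.4 TPM, and so was highest with col + lbe, as nAChRalpha7 was. VAChT, which loads the transmitter into vesicles, stood at 10.5, 13.9, 8.72, 11.3 and 12.0 TPM, and Ace, which breaks it down, at 11.3, 13.1, 9.45, 13.7 and 12.2 TPM.

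None of these 4 genes was 2-fold apart from the control in any of the 8 comparisons. At 1.5-fold and AFT, ChAT was higher with col, and ChAT and ChT were higher with col + lbe. At St16 VAChT stood at 15.1 TPM with ap + eya against 9.32 in the control, a log2 fold change of 0.64. ChAT was then at 9.73 TPM with ap + eya against 7.58 in the control.

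Of the muscarinic receptors, which signal through G proteins, mAChR-A and mAChR-B were lower in the genotypes where nAChRalpha2 was lower, and mAChR-C was not. mAChR-A stood at 7.77 TPM in the control at AFT, 5.55 with col, 4.61 with lbe, 10.2 with col + lbe and 4.87 with ap + eya. mAChR-B stood at 3.07, 2.27, 1.77, 3.25 and 2.39 TPM. At St16 mAChR-A ranged from 1.93 to 2.52 TPM and mAChR-B stayed under 1 TPM. mAChR-C was under 1 TPM in every genotype at both stages, and at AFT ran from 0.483 TPM in the control to 0.721 TPM with ap + eya.

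Of the genes that act on the receptor itself, RIC-3, a chaperone of receptor assembly, stood at 60.8 TPM in the control at AFT and ranged from 53.8 to 65.0 TPM over the genotypes, against 16.7 to 19.3 TPM at St16. Hasp, which with hig organises acetylcholine receptors in the synaptic cleft, stood at 43.0 TPM in control embryos, 33.0 with col, 29.3 with lbe, 47.2 with col + lbe and 30.6 with ap + eya. hig itself ranged from 20.1 TPM with ap + eya to 29.9 TPM with col + lbe. Like Hasp, hig and RIC-3 were lower with col, lbe and ap + eya than in the control and col + lbe. For RIC-3 the control and col were nearly equal.

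qvr, also called sleepless, encodes a Ly6 protein that binds nicotinic receptors and the Shaker channel. It stood at 10.2 TPM in control embryos, 6.29 with col, 4.57 with lbe, 10.2 with col + lbe and 6.15 with ap + eya. In lbe its log2 fold change was -1.01, the only 1 of these 11 genes to be 2-fold apart from the control in any comparison, where 3.47% of all genes were in lbe at AFT. It lay at the threshold, and was -0.90 with median-ratio rescaling, -0.87 with quantile normalisation, -0.67 with a pseudocount of 5, -0.73 against the median of the other 4 genotypes and -0.99 without mitochondrial transcripts. At St16 qvr ranged from 7.16 to 9.06 TPM.

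**Figure D4:**
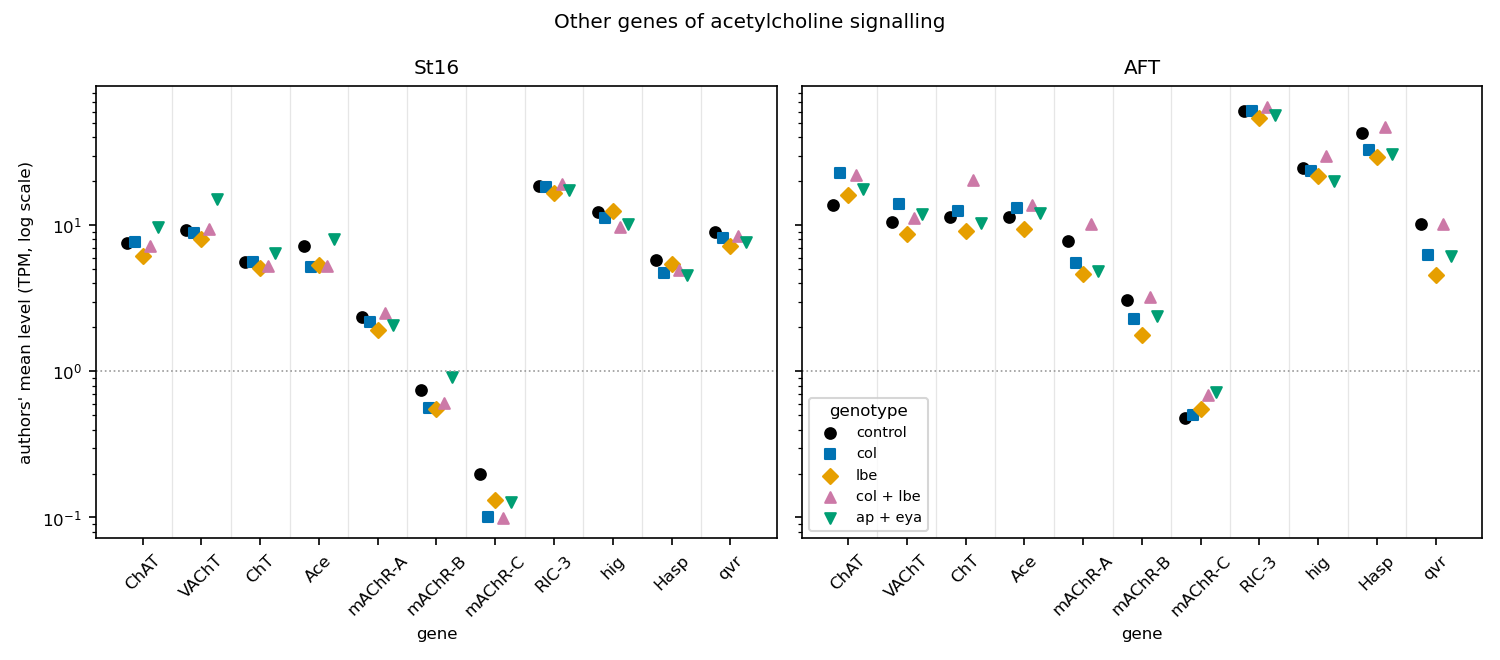
Level in TPM on a log axis of the genes for acetylcholine synthesis, transport and breakdown, the muscarinic receptors and the receptor-associated genes at St16 (left) and AFT (right), with 1 point per genotype and no error available. The dotted line marks 1 TPM. At AFT mAChR-A, mAChR-B, RIC-3, hig, Hasp and qvr lie higher in the control and col + lbe than with col, lbe and ap + eya. For RIC-3 the control and col are nearly equal.

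Of the 11 pan-neuronal genes at AFT, 3 were higher with col, lbe and ap + eya than in the control and col + lbe, 5 were lower there, and 3 (elav, futsch and cac) had neither arrangement. How many of all genes had either arrangement was not counted, so these counts have no background beside them. The list's median log2 fold change was 0.045 with col, -0.25 with lbe, 0.22 with col + lbe and -0.041 with ap + eya. para, the voltage-gated sodium channel, stood at 9.90 TPM in the control at AFT, 20.3 with col, 20.2 with lbe, 12.0 with col + lbe and 20.7 with ap + eya. Syx1A, a SNARE protein of the presynaptic membrane, stood at 51.8, 84.1, 77.0, 52.6 and 82.4 TPM. brp, of the active zone, was lower in those 3 genotypes, at 13.3, 9.52, 7.38, 14.1 and 8.69 TPM, as was nSyb, the vesicle SNARE, at 90.6, 69.3, 60.5, 105 and 65.9 TPM.

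The summed level of the pan-neuronal list was 407 TPM in the control at AFT, 435 with col, 390 with lbe, 473 with col + lbe and 417 with ap + eya. The subunits summed to between 30.0% and 33.2% of it. At St16 it was 467, 463, 461, 553 and 552 TPM in the same order of genotypes, and the subunits summed to between 13.2% and 15.4% of it. Their part in the result was not tested.

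Rdl, the GABA receptor subunit of the same Cys-loop family, was ordered like nAChRalpha6. It stood at 20.4 TPM in the control at AFT, 40.5 with col, 36.2 with lbe, 25.0 with col + lbe and 43.2 with ap + eya, and in the last its log2 fold change was 1.05. Of the 12 other Cys-loop channel genes 8 were compared at AFT, and on the log2(TPM + 1) scale Rdl with ap + eya was the only 1 that was 2-fold apart from the control. With the plain TPM ratio, pHCl-2, a pH-sensitive chloride channel, was too with col (3.60 TPM against 1.65 in the control), col + lbe (4.20) and ap + eya (3.71). So were Grd, which was lower with col (0.809 TPM against 1.85) and lbe (0.923), and CG12344 with col + lbe (3.31 TPM against 1.64). The authors' deposited table of genes apart lists at AFT Rdl for ap + eya, pHCl-2 for col, col + lbe and ap + eya, Grd for col and lbe, and CG12344 for col + lbe. GluClalpha, the glutamate-gated chloride channel, was lower with col, lbe and ap + eya than in the control and col + lbe, as nAChRalpha2 was, at 13.2, 10.9, 8.15, 13.4 and 9.56 TPM.

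Markers of other tissues were present, since the embryos were whole. At AFT the 6 glial genes compared had median log2 fold changes of -0.48 with col, -0.37 with lbe, -0.16 with col + lbe and -0.43 with ap + eya. The 8 muscle genes had medians of -0.21, -0.24, -0.17 and -0.15. The 5 cuticle genes compared had medians of -2.90, -1.54, -3.25 and -3.06, and the 4 gut genes 2.20, 1.62, 3.25 and 1.95. Both fat body genes were under 1 TPM throughout. The glial genes summed to 874 TPM in the control and 610 to 709 TPM in the other genotypes, and the muscle genes to 36010 TPM against 31256 to 33067 TPM. The cuticle genes summed to 2426 TPM in control embryos, 747 with col, 873 with lbe, 394 with col + lbe and 668 with ap + eya, and the gut genes to 613, 1688, 992, 2645 and 1303 TPM. Only in the glial list, among these 4, was the median of col + lbe the one nearest to zero. Their part in the result was not tested.

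The members differed in how they varied over the 10 columns. After centring log2 levels within each stage, Pearson's r was 0.95 between nAChRalpha1 and nAChRalpha6, 0.92 between nAChRalpha1 and nAChRalpha3 and 0.90 between nAChRalpha5 and nAChRalpha6. It was 0.87 between nAChRalpha2 and nAChRbeta1 and -0.83 between nAChRalpha2 and nAChRalpha3. These values describe 10 columns in which all genes share the same libraries. nAChRalpha2 and its neighbour nAChRalpha1 on 3R had an r of -0.63, and nAChRalpha2 and nAChRbeta2, which lie closest together, 0.81.

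Among 6501 genes with a mean of at least 5 TPM at each stage, the profiles most like the mean of the 10 members were those of eIF4A (r = 0.94), Rtnl1 (0.93), CG5355 (0.93), rg (0.93) and Ten-a (0.90), over the same 10 columns. Some of the members averaged there varied in opposite ways, so these 5 genes need not be like any single subunit. eIF4A, a translation initiation helicase, stood at 1178 TPM in the control at AFT and between 1181 and 1343 TPM in the other genotypes. Ten-a, a teneurin of synaptic partner matching, stood at 5.91 TPM in control embryos, 7.88 with col, 6.96 with lbe, 6.79 with col + lbe and 7.96 with ap + eya.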

How the data were processed

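The deposited tables hold 1 TPM column per genotype and stage. The submitters' processing notes name kallisto 0.43.1 and build BDGP6, but no source used here says how gene values were built from transcripts. The columns are the authors' means: multiplied by 3, 56.2% (St16) and 54.5% (AFT) of values between 10 and 100 TPM were whole in the 4th decimal, against 19.9% to 28.0% for other factors. Reads numbered 30 to 50 M per sample and each collection held more than 200 embryos, per the labels' protocols, but TPM keeps no depth and no counting interval can be given.

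A limma fit over replicates had been planned and could not be made. Fold changes used a pseudocount of 1 and a filter of 1 TPM in either group; 2-fold was the threshold and 1.5-fold an alternative. The members and gene lists were chosen with earlier results of these data known. All members and genes of acetylcholine signalling are named, with up to 4 genes of other lists and the 5 genes of most similar profile; para, Syx1A, brp, nSyb, elav, futsch, cac, Rdl, pHCl-2, Grd, CG12344, GluClalpha and the mitochondrial genes were named after their values were seen. Gene positions come from BDGP6.54 (Ensembl release 115), in which 12874 of 14040 St16 symbols matched. The 48 value columns of the authors' lists were not used beyond membership. No protein or promoter sequences were analysed here. The script was tested on simulated data. Computations used Python 3.11.15, pandas 2.3.3 and numpy 2.4.6.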

Additional observations from a re-analysis of the deposited data

How the results depend on the processing

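No subunit was 2-fold apart from the control in any of the 8 comparisons with a pseudocount of 0.1 or 5, without a filter, above 5 TPM, after median-ratio rescaling or quantile normalisation, or against the median of the other 4 genotypes, nor, added after the data were seen, with the plain TPM ratio or without mitochondrial transcripts. At 1.5-fold the counts at AFT became 4 in col, 2 in col + lbe, 2 in ap + eya and 2 for col + lbe against ap + eya. With 1.5-fold and the plain ratio together, added after the data were seen, they were 1 in col + lbe and 2 in ap + eya at St16, and at AFT 4 with col, 3 with lbe, 2 with col + lbe and 3 with ap + eya. The median over the subunits moved with a filter of 5 TPM to -0.13 in col + lbe and -0.22 in ap + eya at St16, and to -0.097 in col and -0.19 in lbe at AFT, where fewer subunits were compared. In lbe at AFT it moved to 0.10 with median-ratio rescaling and 0.13 with quantile normalisation, and in ap + eya to 0.20 with the latter. Against the median of the other genotypes it was -0.052 in col + lbe at AFT. The cause was not tested. The count past 2-fold in the non-additive value was 0 of 10 with a pseudocount of 5 at AFT. At St16 it was 1 with a pseudocount of 0.1, 1 with the plain ratio and 2 at 1.5-fold. The count 2-fold higher at AFT than at St16 became 2 in the control, 3 in col and 3 in ap + eya with a pseudocount of 5, and 8 in ap + eya with median-ratio rescaling. Of 72 differences of single subunits from the control, 17 had another sign under at least 1 alternative; of the 33 that were 1.2-fold or more, the 2 that did were nAChRbeta3 in lbe and in ap + eya at AFT against the median of the other genotypes. Among the other genes called 2-fold apart, Rdl with ap + eya at AFT was at 0.92 with a pseudocount of 5 and 0.48 against the median of the other genotypes.

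No paired analysis was possible because the labels give no replicate numbers and each group has 1 mean. Leaving out a replicate was not run for the same reason. The means do not show replicate error. Genes under 1 TPM, such as nAChRalpha3 and nAChRalpha7 at St16, rest on few reads of unknown number.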
